A study of Rattus norvegicus with 12 samples.

Results

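The 40 genes described here encode voltage-gated, sodium-activated and calcium-activated potassium channels of the rat, with their modifier and auxiliary subunits. They were matched by gene symbol to a list drawn up with earlier results of these data known, and all 40 were listed in each of 12 RNA-seq libraries made from dorsal root ganglia, out of 20152 genes listed in at least 1 library. The libraries fall into 3 groups of 4: rats given oxaliplatin (2.4 mg/kg in glucose solution), rats given paclitaxel (2.0 mg/kg, from a DMSO stock brought down in saline) and vehicle. Both drugs are cancer medicines that damage sensory nerves, and they were injected intraperitoneally to bring on peripheral neuropathic pain. The labels give neither the strain, the sex and age of the rats, the time after injection nor the solvent of the vehicle group, so the effect of a drug and that of its solvent cannot be told apart. They do not say whether the 4 libraries of a group came from separate animals. The p-values below set differences between groups against the spread between these libraries, which may be partly technical.

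Dorsal root ganglia hold the cell bodies of sensory neurons, and potassium channels set how easily those neurons fire. Channels of the Kv1, Kv2, Kv3 and Kv4 families open on depolarisation and shape the action potential, Kv7 and EAG-related channels act near the resting potential, and BK, SK and KNa channels open when calcium or sodium enters the cell. Beta subunits, KChIP proteins and the silent modifier subunits carry no current alone but change the amount or the gating of the pore-forming subunits. Loss of potassium current in sensory neurons is a known feature of nerve injury.

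Levels between genes were compared as the deposited FPKM, which corrects fragment counts for the length of a transcript and the size of its library. The beta subunit gene Kcnab2, whose protein binds Kv1 channels inside the cell, had the highest level, with 201 ± 22.4 FPKM in oxaliplatin, 244 ± 32.7 FPKM in paclitaxel and 207 ± 11.8 FPKM in vehicle libraries (SD, n = 4 each). Its lowest library (182.59 FPKM) lay far above the highest library of Kcnip3 (92.2 FPKM), the next gene by the mean over the 12 libraries. Kcnip3 encodes a calcium-binding KChIP protein that also goes by the name DREAM, and it averaged 60.1 ± 10.7 FPKM in oxaliplatin, 81.6 ± 16.8 FPKM in paclitaxel and 58.4 ± 6.2 FPKM in vehicle libraries, where the mean of Kcnc4 was higher.

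By the mean over the 12 libraries the highest pore-forming genes were the Kv3 gene Kcnc4, the Kv4 gene Kcnd1 and the Kv1 genes Kcna2 and Kcna1. Kcnc4, a fast-activating channel gene, averaged 55.4 ± 6.56 FPKM in oxaliplatin, 64.2 ± 10.6 FPKM in paclitaxel and 60.8 ± 7.64 FPKM in vehicle libraries. Kcnd1, a channel gene for transient current below threshold, averaged 48.3 ± 7.43, 64.9 ± 8.53 and 51.2 ± 4.68 FPKM in the oxaliplatin, paclitaxel and vehicle libraries. Kcna2, a channel gene of myelinated axons, averaged 38.6 ± 5.98, 47.7 ± 7.41 and 49.1 ± 5.77 FPKM in the same order of groups. Kcna1, its partner in the same channels, ran from 22.45 to 53.21 FPKM over the 12 libraries. The ranges of these 4 genes overlap each other and that of Kcnh2, which averaged 45.4 FPKM against 42.8 FPKM for Kcna1 in paclitaxel libraries, so no order is drawn among them.

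In the remaining families the gene with the highest mean level over the 12 libraries was Kcnh2 among EAG and ERG channels, Kcns3 among modifiers, Kcnq5 in Kv7, Kcnt1 in KNa, Kcnn1 in SK, Kcnmb4 in BK and Kcnb2 as the single Kv2 gene. Over all 12 libraries the level of Kcnh2, whose ERG current slows repetitive firing, ran from 28.78 to 54.54 FPKM, and that of Kcns3, a silent partner of Kv2, from 30.38 to 41.12 FPKM. The range was 18.5 to 30.19 FPKM for Kcnq5, which contributes to the M current, and 14.27 to 24.59 FPKM for Kcnt1, a sodium-activated channel gene. Kcnn1, a small-conductance calcium-activated channel gene, ran from 9.16 to 17.26 FPKM, Kcnmb4, the neuronal beta subunit of BK, from 9.41 to 13.92 FPKM, and Kcnb2, a delayed rectifier gene, from 1.64 to 3.86 FPKM. The lowest members were Kcnd2 (0.21 to 0.42 FPKM), Kcnh5 (0.3 to 1.13 FPKM), Kcnab3 (0.49 to 0.94 FPKM) and Kcng3 (0.56 to 1.61 FPKM), for which precision is lowest.

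**Figure D1:**
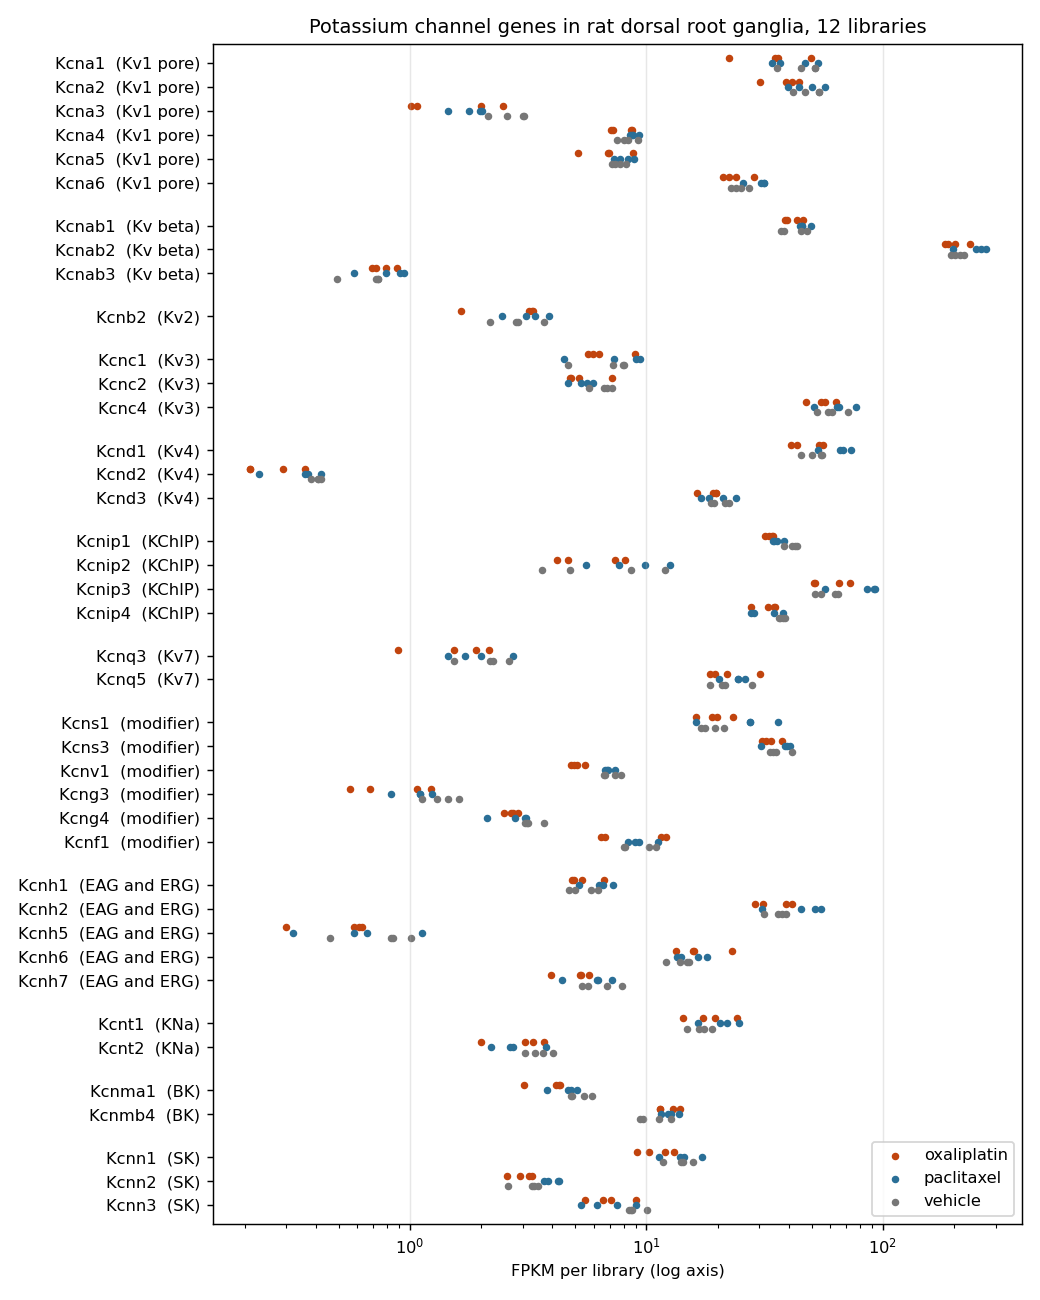
FPKM (log axis) of each of the 40 genes, grouped by family, with 1 point per library and colours for oxaliplatin, paclitaxel and vehicle. Levels run from 0.21 FPKM for Kcnd2 to 271.89 FPKM for Kcnab2, and for most genes the 3 groups overlap.

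All libraries had similar depth, with 17008728 to 17615736 estimated counts. Changes were tested on estimated counts with edgeR, and per-library values are given as normalised CPM, that is, counts relative to the library size after TMM scaling. A gene is called when its adjusted p (Benjamini-Hochberg over all 15809 genes tested) is under 0.05. All 40 genes passed the filter on low counts. For 13 of them over 6 libraries gave a fractional estimated count, so that reads may be shared with a related gene, and their values are uncertain: Kcna2, Kcna5, Kcna6, Kcnab1, Kcnab2, Kcnc1, Kcnc4, Kcnd2, Kcng4, Kcnip2, Kcnip3, Kcnn2 and Kcnn3. Both drug groups were compared with the same vehicle libraries, so the comparisons with vehicle are not independent of each other.

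With oxaliplatin, Kcnv1 and Kcnip1 fell relative to vehicle, and the set as a whole lay lower. Kcnv1 encodes a silent modifier subunit that reduces Kv2 current when it joins the channel. Kcnip1 encodes a KChIP protein that brings Kv4 channels to the membrane. These 2 called genes, 5% of the 40, compare with 1.76% called among all genes tested, or 0.708% called lower. No potassium channel gene of the set was called higher, where 166 of all 15809 genes tested were.

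Kcnv1 had 11.5, 12.5, 11.3 and 10.8 CPM in oxaliplatin libraries 1 to 4, against 15.3, 18.4, 15.5 and 17.1 CPM in vehicle libraries 1 to 4. Every oxaliplatin library was below every vehicle library. The log2 fold change was -0.52 ± 0.10 (SE), with an edgeR adjusted p of 0.0196. The call was lost without vehicle 2 (adjusted p = 0.0618), vehicle 4 (0.0756), oxaliplatin 1 (0.0505) or oxaliplatin 3 (0.0532), with log2 fold changes of -0.47 to -0.52 in those 4 edgeR fits. It was also lost with a block on replicate number (edgeR adjusted p = 0.0566), and held in 18 of 23 alternative fits.

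Kcnip1 had 55.4, 55.0, 51.9 and 52.4 CPM in oxaliplatin libraries, against 71.5, 63.4, 69.3 and 69.05 CPM in vehicle libraries. The groups did not overlap, and the oxaliplatin libraries were tight, with an SD of 1.78 CPM around 53.6 CPM. The log2 fold change was -0.35 ± 0.07, with an edgeR adjusted p of 0.0216. That call was lost without vehicle 1 (adjusted p = 0.0636), vehicle 4 (0.0769) or oxaliplatin 3 (0.0602), at edgeR log2 fold changes of -0.33 to -0.34. A block on replicate number lost it too (edgeR adjusted p = 0.0604), and it held in 19 of 23 alternative fits.

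Kcnma1, the pore gene of the BK channel, came next by p and was not called. It had 16.7, 22.4, 22.7 and 22.9 CPM in oxaliplatin libraries, against 29.6, 27.0, 26.3 and 32.2 CPM in vehicle libraries. All 4 oxaliplatin libraries were lower, with a log2 fold change of -0.44 ± 0.12 and an edgeR adjusted p of 0.0772. The beta subunit of the same channel, Kcnmb4, had 11.5, 12.8, 11.1 and 13.6 CPM with oxaliplatin, against 11.3, 12.9, 9.44 and 9.7 CPM in vehicle libraries (log2 fold change 0.18 ± 0.12, adjusted p = 0.478 in edgeR). Kcnmb4 held 72.9% to 79.0% of the summed FPKM of the BK pair in oxaliplatin libraries, against 62.2% to 72.3% in vehicle libraries.

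Kcna2 had 342, 418, 441 and 465 CPM in oxaliplatin libraries, against 574, 468, 513 and 603 CPM in vehicle libraries. Its highest oxaliplatin library lay just below its lowest vehicle library, and it was not called (log2 fold change -0.37 ± 0.12, edgeR adjusted p = 0.139). Kcna3, a Kv1 gene of low level, had 1.68, 1.55, 3.73 and 3.03 CPM with oxaliplatin, against 4.74, 3.39, 4.0 and 4.71 CPM in vehicle libraries. It had the largest negative fold change of the set, -0.75 ± 0.26 on the log2 scale, with overlapping groups and an adjusted p of 0.156 in edgeR. Kcnn1 had 25.9, 33.0, 26.9 and 36.9 CPM with oxaliplatin, against 42.9, 37.7, 37.5 and 38.1 CPM in vehicle libraries (log2 fold change -0.35 ± 0.14, edgeR adjusted p = 0.224).

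Among the other genes without overlap, Kcnip4, a KChIP gene, had 73.3, 75.9, 74.4 and 61.2 CPM in oxaliplatin libraries, against 86.3, 83.7, 82.5 and 85.3 CPM in vehicle libraries. Its vehicle libraries lay close together, and it was not called (log2 fold change -0.25 ± 0.09, edgeR adjusted p = 0.198). Kcng4, a silent subunit gene that acts on Kv2, had 10.97, 11.5, 10.8 and 10 CPM with oxaliplatin, against 12.8, 15.3, 12.9 and 12.6 CPM in vehicle libraries (log2 fold change -0.31 ± 0.12, edgeR adjusted p = 0.202). Kcnd2, the Kv4 gene with the lowest level, had 0.866, 1.15, 1.41 and 0.787 CPM with oxaliplatin, against 1.62, 1.7, 1.72 and 1.55 CPM in vehicle libraries (log2 fold change -0.64 ± 0.25, edgeR adjusted p = 0.209).

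Over the whole set 34 genes had lower and 6 had higher estimates with oxaliplatin than with vehicle. The median log2 fold change was -0.17 over the 40 genes and 0.01 over all genes tested, of which 48.3% were lower. Without vehicle 4 the median over the set was -0.09, with 29 of the 40 lower. At an unadjusted p under 0.05, 13 of the 40 were lower, against 8.06% of all genes, and none was higher. In either direction 17.2% of all genes passed that level. For 8 of the 40 every oxaliplatin library lay below every vehicle library, namely Kcna2, Kcnd2, Kcnip1, Kcnip4, Kcnv1, Kcng4, Kcnma1 and Kcnn1. That is 20% of the set, against 5.76% of all genes tested. For 0 of the 40 did every oxaliplatin library lie above, against 5.54% of all genes.

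The 6 genes with higher estimates were Kcnh6, Kcnmb4, Kcnab3, Kcnt1, Kcns1 and Kcnip3, and none of them passed the test. Kcnh6, a further ERG channel gene, had 52.8, 44.1, 51.7 and 75.4 CPM in oxaliplatin libraries, against 45.7, 41.7, 51.2 and 50.6 CPM in vehicle libraries. Oxaliplatin library 4 stood above the others, and the log2 fold change was 0.24 ± 0.15 (edgeR adjusted p = 0.441). Kcnab3, a beta subunit gene near the bottom of the range, had 1.33, 1.49, 1.47 and 1.8 CPM with oxaliplatin, against 1.27, 1.29, 1.03 and 1.55 CPM in vehicle libraries (log2 fold change 0.24 ± 0.22, edgeR adjusted p = 0.62).

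**Figure D2:**
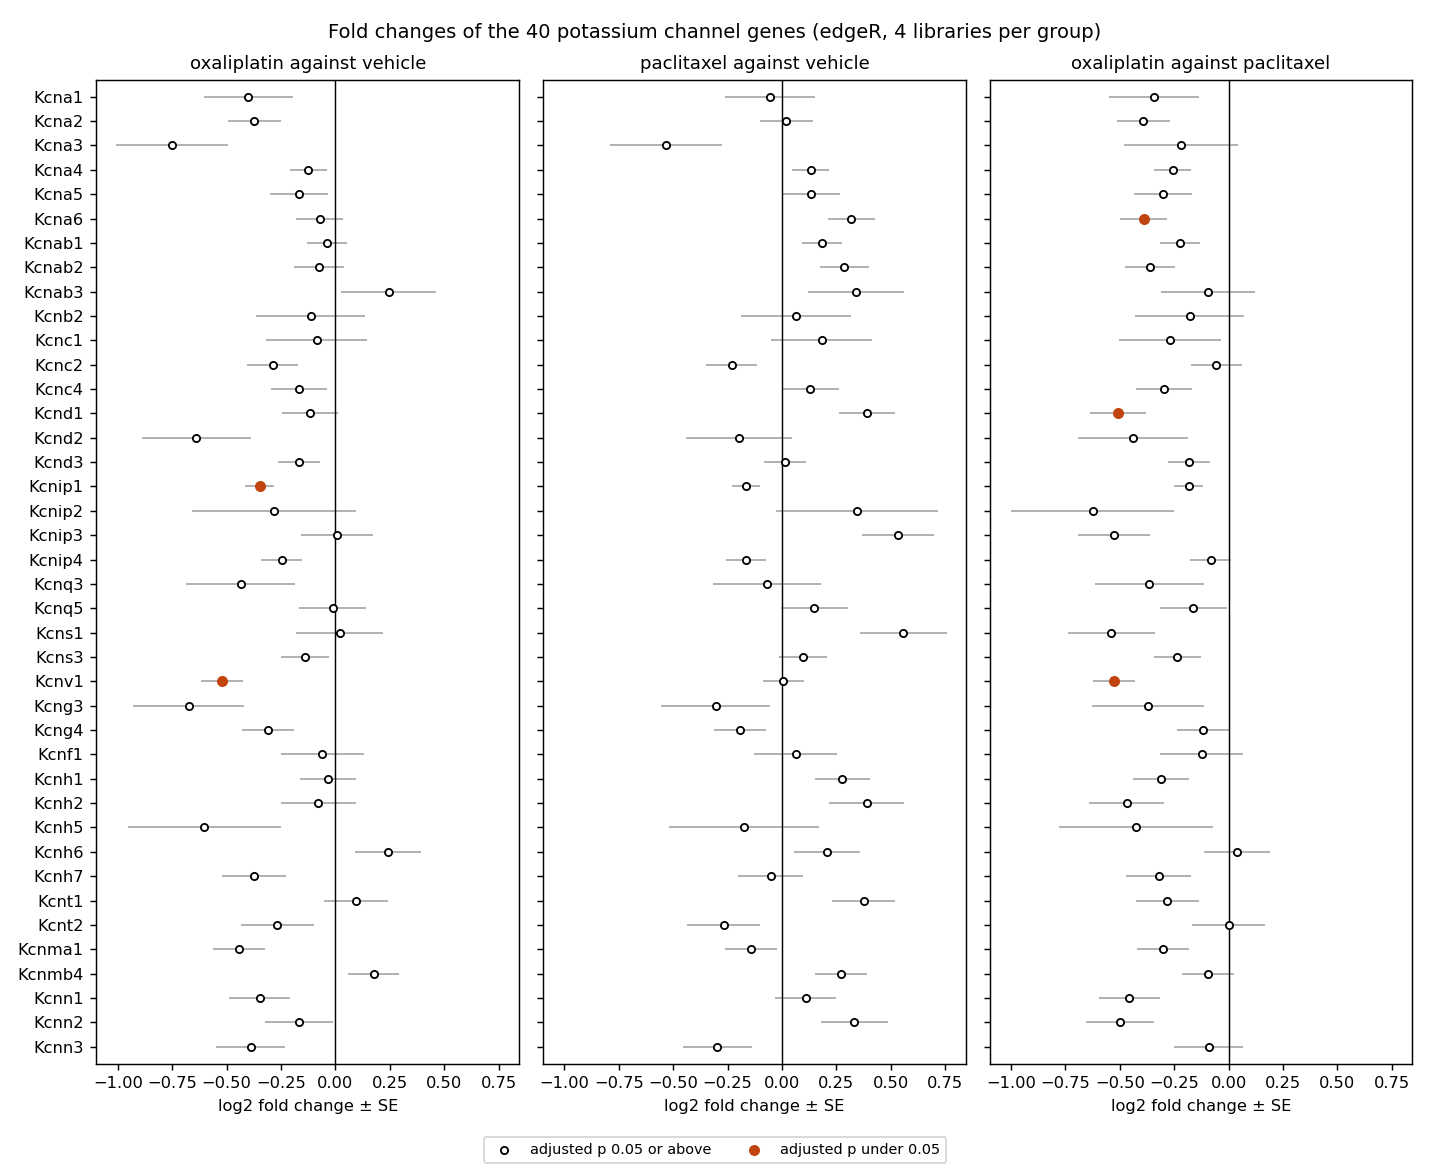
Log2 fold change with its standard error (edgeR, 4 libraries per group) for each of the 40 genes, in panels for oxaliplatin against vehicle, paclitaxel against vehicle and oxaliplatin against paclitaxel. Filled points mark an adjusted p under 0.05: 2 genes in the first panel, 0 in the second and 3 in the third.

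With paclitaxel, 0 of the 40 genes were called against vehicle by edgeR, where 0.12% of all genes tested were. DESeq2 also called 0 of the 40. At an unadjusted p under 0.05, 10 of the 40 were higher, against 9.18% of all genes tested, and 1 was lower. In either direction 17.1% of all genes tested passed that level. The largest estimates were for Kcns1, Kcnip3, Kcnd1 and Kcnh2, each high in paclitaxel libraries 1 to 3 and near the vehicle values in library 4.

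Kcnip3 had 289, 257, 280 and 166 CPM in paclitaxel libraries 1 to 4, against 158, 153, 189 and 183 CPM in vehicle libraries. Libraries 1 to 3 lay above every vehicle library and library 4 within the vehicle range, and the log2 fold change was 0.53 ± 0.16 (edgeR adjusted p = 0.209). Kcnd1, whose channel protein binds KChIP proteins, had 292, 252, 263 and 198 CPM with paclitaxel, against 186, 170, 203 and 206 CPM in vehicle libraries (log2 fold change 0.39 ± 0.13, edgeR adjusted p = 0.218). Kcna6, a Kv1 gene, had 228, 212, 223 and 175 CPM with paclitaxel, against 161, 157, 170 and 184.5 CPM in vehicle libraries (log2 fold change 0.32 ± 0.11, edgeR adjusted p = 0.222). In all of these, paclitaxel library 4 lay inside the vehicle range.

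Kcns1, named here after its values were seen, had 107, 78.3, 81.2 and 45.1 CPM in paclitaxel libraries, against 48.9, 48.5, 54.3 and 59.6 CPM in vehicle libraries. It encodes a modifier of Kv2 channels in sensory neurons, and its paclitaxel library 4 was lower than every vehicle library (log2 fold change 0.56 ± 0.20, edgeR adjusted p = 0.236). Kcnh2 had 230, 183, 214 and 121 CPM with paclitaxel, against 141, 125, 155 and 149 CPM in vehicle libraries (log2 fold change 0.39 ± 0.17, edgeR adjusted p = 0.275). Kcnab2 had 1073, 941, 1003 and 734 CPM with paclitaxel, against 744, 728, 787 and 816 CPM in vehicle libraries (log2 fold change 0.29 ± 0.11, edgeR adjusted p = 0.251). Kcnt1 had 157, 131, 121 and 101 CPM with paclitaxel, against 101, 87.4, 95.2 and 110 CPM in vehicle libraries (log2 fold change 0.37 ± 0.15, edgeR adjusted p = 0.25).

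Paclitaxel library 4 therefore decided this count. Without it, edgeR called 7 of the 40 genes higher than vehicle: Kcna6, Kcnab2, Kcnd1, Kcnh2, Kcnip3, Kcns1 and Kcnt1. All genes called were then 1631 of 15950 tested (10.2%). The log2 fold changes of the 7 genes ran from 0.39 for Kcnab2 to 0.75 for Kcns1, with adjusted p from 0.0198 to 0.0493 in edgeR. A limma fit that gave each library a quality weight called 9 of the 40, the same 7 with Kcnh1 higher and Kcnip1 lower, and 14.4% of all genes tested.

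The genes with the smallest p on the lower side were Kcnip1, Kcna3 and Kcnc2. Kcnip1 had 59.9, 58.8, 62.7 and 62.4 CPM in paclitaxel libraries, against 71.5, 63.4, 69.3 and 69.05 CPM in vehicle libraries, with no overlap (log2 fold change -0.16 ± 0.07, edgeR adjusted p = 0.251). Kcna3 had 2.42, 3.23, 3.2 and 2.79 CPM with paclitaxel, all below the lowest vehicle library at 3.39 CPM (log2 fold change -0.53 ± 0.26, edgeR adjusted p = 0.303). Kcnc2, a Kv3 gene, had 23.0, 27.9, 24.9 and 26.2 CPM with paclitaxel, against 30.3, 26.7, 30.5 and 32.3 CPM in vehicle libraries (log2 fold change -0.23 ± 0.12, edgeR adjusted p = 0.32). Groups without overlap were 2 of the 40 on the lower side (3.08% of all genes tested) and 1, Kcnn2, on the higher side (3.88%). Estimates were higher for 26 and lower for 14 of the 40, with a median log2 fold change of 0.10 over the set and -0.01 over all genes tested. With 1 library left out the median over the set ran from 0.05 (without paclitaxel 3) to 0.15 (without vehicle 4).

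The direct comparison of oxaliplatin with paclitaxel tests whether the drugs' effects differ, and the vehicle libraries enter it through the scaling, the filter and the shared estimate of the spread. On the libraries of the 2 drugs alone edgeR called 1 of the 40, Kcnv1, and 6.53% of all genes tested. Kcnv1, Kcnd1 and Kcna6 were called, all lower with oxaliplatin. These are 7.5% of the 40, against 11.3% called among all genes tested in either direction and 4.71% called lower. Kcnv1 had 11.5, 12.5, 11.3 and 10.8 CPM in oxaliplatin libraries, against 16.99, 16.2, 17.8 and 15.5 CPM in paclitaxel libraries, with a log2 fold change of -0.53 ± 0.10 and an edgeR adjusted p of 0.00696. The groups were apart, and the paclitaxel mean of 16.63 CPM lay close to the vehicle mean of 16.56 CPM. The call held in 22 of 23 alternative fits and was lost in the fit with a neuron marker score.

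Kcnd1 had 208, 150, 155 and 194 CPM in oxaliplatin libraries, against 292, 252, 263 and 198 CPM in paclitaxel libraries. Paclitaxel library 4 overlapped the oxaliplatin range, and the log2 fold change was -0.51 ± 0.13 (edgeR adjusted p = 0.0259). The Kcnd1 call was lost without paclitaxel 1, 2 or 3 or oxaliplatin 2 or 3 (edgeR adjusted p of 0.0662 to 0.08) and on the 2 drug groups alone (0.0547). Kcna6 had 163, 150, 138 and 189 CPM with oxaliplatin, against 228, 212, 223 and 175 CPM with paclitaxel (log2 fold change -0.39 ± 0.11, edgeR adjusted p = 0.035). Oxaliplatin library 4 lay above paclitaxel library 4 for Kcna6. The Kcna6 call was lost without any 1 of paclitaxel libraries 1 to 3 or oxaliplatin libraries 1 to 3 (in separate fits), with edgeR adjusted p between 0.0596 and 0.102. It was also lost on the 2 drug groups alone (edgeR adjusted p = 0.0739) and with a block on replicate number (edgeR, 0.0693). On log2 FPKM with limma the adjusted p was 0.0691 and 0.0695. The Kcna6 call held in 12 of 23 alternative fits. Without paclitaxel 4 the log2 fold change was -0.61 for Kcnd1 (edgeR adjusted p = 0.00561) and -0.47 for Kcna6 (edgeR adjusted p = 0.00835).

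Of the 40 genes, 38 had lower estimates with oxaliplatin than with paclitaxel. The other 2, Kcnh6 (log2 fold change 0.04 ± 0.15) and Kcnt2 (0.00 ± 0.17), stood near 0 in this fit, with a sign that changed between fits. Over 23 alternative fits the log2 fold change ran from -0.14 to 0.62 for Kcnh6 and from -0.10 to 0.14 for Kcnt2. Kcnt2, the second KNa gene, had 8.66, 12.7, 13.9 and 14.9 CPM with oxaliplatin, against 9.98, 11.7, 12.5 and 16.03 CPM with paclitaxel. The median log2 fold change was -0.30 over the set and 0.00 over all genes tested, of which 49.4% were lower. At an unadjusted p under 0.05, 18 of the 40 were lower, against 13.8% of all genes. In 6 genes every oxaliplatin library was below every paclitaxel library, namely Kcna2, Kcna4, Kcnab1, Kcnip1, Kcnv1 and Kcnn2, or 15% of the set against 6.1% of all genes. In 0 genes was every oxaliplatin library above, against 9.17% of all genes.

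Kcnn2, an SK gene, had 5.83, 8.33, 6.83 and 8.71 CPM in oxaliplatin libraries, against 11.1, 9.62, 11.7 and 9.58 CPM in paclitaxel libraries. The groups were apart but the gene just missed the threshold (log2 fold change -0.50 ± 0.16, edgeR adjusted p = 0.0534). Of 23 alternative fits 8 called Kcnn2, among them DESeq2 and the fit without vehicle 2. Over the 23 its log2 fold change ran from -0.59 to -0.12. Against vehicle, whose libraries had 7.74, 6.66, 9.44 and 9.47 CPM, it had a log2 fold change of -0.17 ± 0.16 with oxaliplatin and 0.33 ± 0.15 with paclitaxel. Kcna4, the A-type channel gene of the Kv1 family, had 29.5, 28.9, 32.8 and 35.1 CPM with oxaliplatin, against 38.1, 38.6, 37.5 and 36.65 CPM with paclitaxel (log2 fold change -0.26 ± 0.09, edgeR adjusted p = 0.0657). Kcnab1, a beta subunit that speeds Kv1 inactivation, had 139, 151, 132 and 158 CPM with oxaliplatin, against 169, 181, 168 and 161 CPM with paclitaxel (log2 fold change -0.22 ± 0.09, edgeR adjusted p = 0.121).

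The next 4 genes had overlapping groups and were not called in any comparison. Kcnc4, a Kv3 gene, had 156, 132, 157 and 175 CPM in oxaliplatin libraries, 199, 187, 229 and 147 CPM in paclitaxel libraries and 166, 153, 175 and 203 CPM in vehicle libraries. Its log2 fold changes were -0.17 ± 0.13 for oxaliplatin and 0.13 ± 0.13 for paclitaxel, each against vehicle, and the 3 groups overlapped. Kcnq5 had 70.8, 73.5, 80.6 and 112 CPM with oxaliplatin, 99.96, 103, 96.7 and 77.5 CPM with paclitaxel and 79.1, 71.8, 81.9 and 107 CPM with vehicle. Kcnq5 had the highest vehicle library and the highest oxaliplatin library in replicate 4, and its log2 fold changes against vehicle were -0.01 ± 0.15 for oxaliplatin and 0.15 ± 0.15 for paclitaxel.

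Kcns3 had 88.5, 71.5, 76.8 and 73.8 CPM with oxaliplatin, 99.5, 94.2, 99.7 and 72.2 CPM with paclitaxel and 80.7, 80.2, 83.6 and 97.4 CPM with vehicle (log2 fold changes of -0.14 ± 0.11 and 0.10 ± 0.11 against vehicle for oxaliplatin and paclitaxel). Kcnb2 had 7.74, 19.01, 18.5 and 16.3 CPM with oxaliplatin, 11.9, 16.9, 20.7 and 20.3 CPM with paclitaxel and 16.6, 13.6, 15.2 and 21.3 CPM with vehicle. Oxaliplatin 1 was the lowest library for Kcnb2, and its log2 fold changes against vehicle were -0.11 ± 0.25 for oxaliplatin and 0.07 ± 0.25 for paclitaxel.

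The members not yet given by value had overlapping groups in all 3 comparisons. Kcna1 ran from 38.9 to 83.4 CPM with oxaliplatin, from 59.3 to 95.9 CPM with paclitaxel and from 63.0 to 89.9 CPM with vehicle, and Kcnd3, a Kv4 gene, from 108 to 129 CPM, 122 to 159.9 CPM and 127 to 149.9 CPM. Kcnh7, an ERG gene, ran from 50.5 to 71.6 CPM with oxaliplatin, 60.1 to 91.1 CPM with paclitaxel and 66.1 to 99.9 CPM with vehicle, and Kcnh1, an EAG gene, from 36.3 to 48.0 CPM, 39.03 to 56.7 CPM and 36.4 to 46.5 CPM. Kcnip2, the gene with the widest standard error (0.38 on the log2 scale for oxaliplatin against vehicle), ran from 9.53 to 17.2 CPM, 12.2 to 29.1 CPM and 8.03 to 26.2 CPM in the oxaliplatin, paclitaxel and vehicle libraries. For Kcna5, Kcnc1, Kcnf1, Kcng3, Kcnh5, Kcnn3 and Kcnq3 the log2 fold changes lay between -0.67 (Kcng3) and -0.06 (Kcnf1) for oxaliplatin against vehicle, and between -0.31 (Kcng3) and 0.18 (Kcnc1) for paclitaxel against vehicle.

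The number called in the direct comparison moved with single libraries and with the tool. Without paclitaxel 4 it was 14 of the 40, where 21.7% of all genes were called, and without oxaliplatin 4 it was 11, where 14.1% were, all 14 and all 11 lower with oxaliplatin. It was 1 (Kcnv1) without paclitaxel 1, paclitaxel 3, oxaliplatin 2 or oxaliplatin 3. DESeq2 called 12 of the 40 lower, among them Kcna2, Kcnab2, Kcnip3, Kcnn1 and Kcns1 beside the 3 genes above, and 17.7% of all genes tested.

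**Figure D3:**
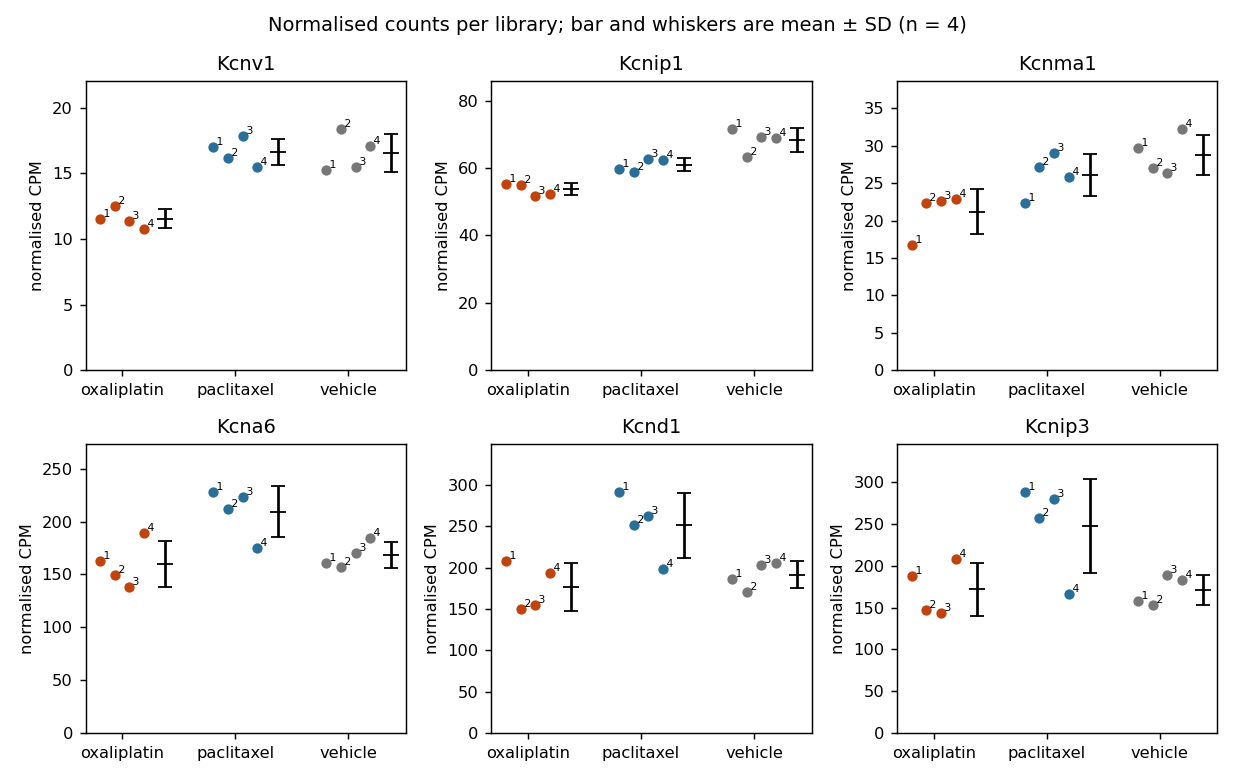
Normalised CPM of 6 genes in the 4 libraries of each group, numbered by replicate, with mean ± SD beside the points. Kcnv1 and Kcnip1 are lowest in the oxaliplatin libraries, while Kcna6, Kcnd1 and Kcnip3 are high in paclitaxel libraries 1 to 3 and lower in library 4 (166 CPM for Kcnip3).

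Shares within families describe the balance of the subunits per unit of transcript length, with no test. Kcnip3 made up 47.8%, 41.0%, 40.4% and 52.2% of the summed KChIP FPKM in oxaliplatin libraries 1 to 4, 55.0%, 51.9%, 56.4% and 41.1% in paclitaxel libraries, and 38.2% to 43.9% in vehicle libraries. Kcnip1 made up 22.7% to 27.4% in oxaliplatin, 20.4% to 27.5% in paclitaxel and 27.3% to 30.8% in vehicle libraries. The share of Kcnd1 in the Kv4 genes was 67.7% to 77.0% with oxaliplatin, 80.8%, 75.4%, 78.4% and 68.7% in paclitaxel libraries 1 to 4, and 69.6% to 73.4% with vehicle. Kcnt1 held 82.3% to 90.8% of the KNa pair with oxaliplatin, 91.8%, 89.2%, 88.2% and 81.6% in paclitaxel libraries 1 to 4, and 82.4% to 83.1% with vehicle. The vehicle libraries had the smallest SD in each of these 4 shares.

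Among the Kv1 pore genes Kcna2 held 31.2% to 35.7% of their summed FPKM with oxaliplatin, 31.4% to 35.8% with paclitaxel and 34.9% to 36.1% with vehicle. Kcna6 held 18.3% to 26.6% with oxaliplatin, 19.7% to 24.9% with paclitaxel and 16.1% to 19.3% with vehicle. Kcna3 held 0.9% to 2.15%, 1.15% to 1.44% and 1.81% to 2.06% in the oxaliplatin, paclitaxel and vehicle libraries. For both genes the paclitaxel and vehicle shares did not overlap. The summed FPKM of the 6 Kv1 pore genes was 115 ± 21.2 with oxaliplatin, 139 ± 17 with paclitaxel and 138 ± 15.6 with vehicle (SD, n = 4 each). In the Kv beta family Kcnab2 held 80.5% to 83.5%, 81.1% to 85.7% and 82.0% to 84.2% in the oxaliplatin, paclitaxel and vehicle libraries.

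**Figure D4:**
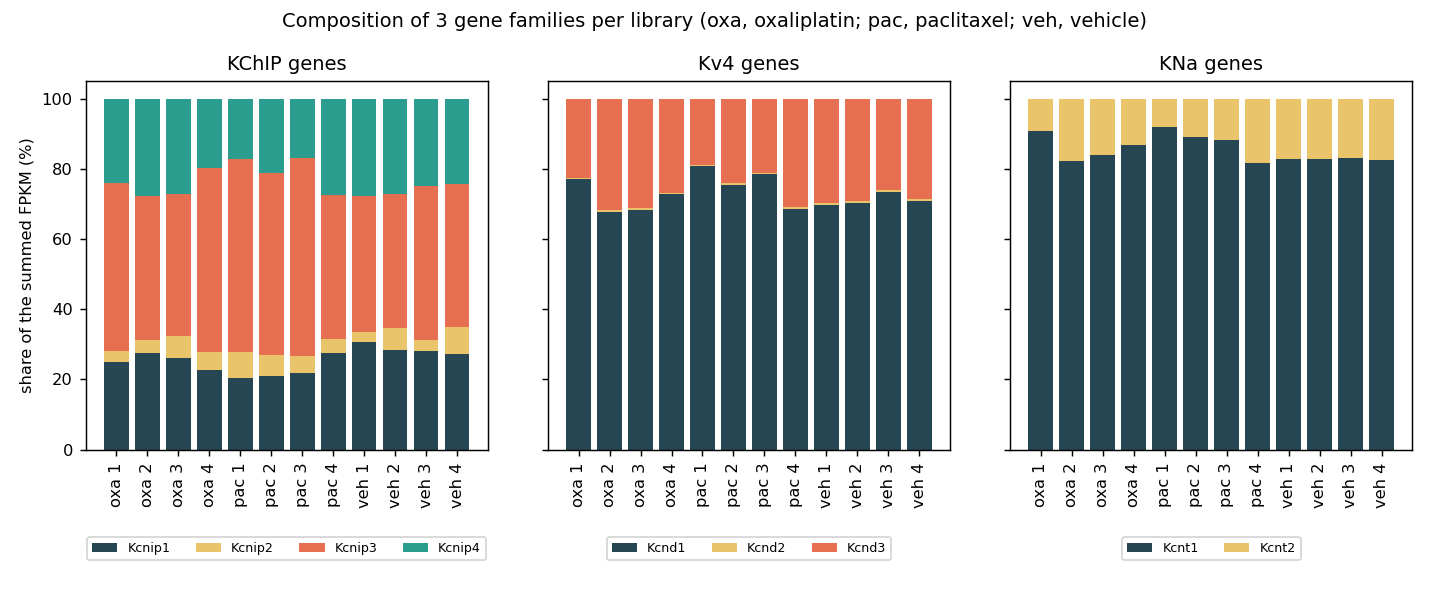
Share (%) of each gene in the summed FPKM of its family, as stacked bars, for KChIP, Kv4 and KNa genes in each library. Kcnip3, Kcnd1 and Kcnt1 take larger shares in paclitaxel libraries 1 to 3 than in any vehicle library, and paclitaxel 4 resembles vehicle (Kcnip3 at 41.1%).

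Markers of cell types moved together with these differences. The libraries are of whole ganglia, so fewer cells of a type and less RNA per cell cannot be told apart. The score of a list is the mean log2 CPM of its genes minus the mean of the vehicle libraries. For 16 neuron markers it was -0.16, -0.21, -0.23 and 0.08 in oxaliplatin libraries 1 to 4, 0.40, 0.21, 0.28 and 0.04 in paclitaxel libraries, and -0.07 to 0.11 in vehicle libraries. The same score of the 40 potassium channel genes was -0.41, -0.26, -0.19 and -0.01 with oxaliplatin, 0.07, 0.11, 0.16 and -0.06 with paclitaxel, and -0.12 to 0.15 with vehicle. Replicate 4 of each drug group thus lay within the vehicle range on both scores.

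All 16 neuron markers had lower estimates with oxaliplatin than with paclitaxel, as had 49.4% of all genes tested. Of the 16, edgeR called 6, where 4.71% of all genes tested were called lower. Against vehicle all 16 were higher with paclitaxel, 10 at an unadjusted edgeR p under 0.05 (9.18% of all genes tested). With oxaliplatin 14 were lower than with vehicle and 2 higher, with 3 lower at that level (8.06%). Against vehicle edgeR called 0 of the 16 for either drug, and DESeq2 2 for paclitaxel. The summed FPKM of the 16 ran from 6992 to 8456 in oxaliplatin, from 8781 to 11027 in paclitaxel and from 7801 to 8729 in vehicle libraries. Of 12 markers of large myelinated neurons, 3 were called lower and 0 higher with oxaliplatin against vehicle. Among all genes tested 0.708% were called lower there. Between the drugs 4 of the 12 were called lower and 1 higher with oxaliplatin. The score of the 12 was -0.51 to -0.16 in oxaliplatin, -0.18 to 0.18 in paclitaxel and -0.11 to 0.10 in vehicle libraries. Of 10 markers of non-peptidergic nociceptors, 1 was called lower with oxaliplatin against vehicle, with scores of -0.30 to -0.07, 0.03 to 0.22 and -0.12 to 0.06 in the 3 groups. Of 7 markers of peptidergic nociceptors edgeR and DESeq2 called 0 in that comparison, with 1 at an unadjusted edgeR p under 0.05, and their scores were -0.19 to 0.04 with oxaliplatin, 0.09 to 0.30 with paclitaxel and -0.07 to 0.10 with vehicle.

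Markers of blood, fat and connective tissue cells also showed differences. Between the drugs edgeR called 9 erythroid, 6 fibroblast and 5 macrophage markers, all higher with oxaliplatin. Among all 15809 genes tested 1044 were called higher there. It also called 3 endothelium and 2 smooth muscle markers higher, and 0 neutrophil markers. Against vehicle edgeR called 0 erythroid and 0 fibroblast markers for either drug, and 2 macrophage markers lower with paclitaxel. DESeq2 called 9 erythroid, 1 fibroblast and 2 macrophage markers for oxaliplatin against vehicle, and 1, 1 and 9 for paclitaxel, in either direction. The edgeR estimates for oxaliplatin against vehicle were higher for 10 erythroid, 7 fibroblast and 3 macrophage markers, and lower for 0, 1 and 9. For paclitaxel all estimates of these lists were lower. All 10 neutrophil markers were also lower with paclitaxel than with vehicle, at an unadjusted edgeR p under 0.05, and edgeR called 0 of them. The summed FPKM of 10 erythroid markers was 8968 to 30457 with oxaliplatin, 1992 to 4979.5 with paclitaxel and 4066 to 7728 with vehicle. For 8 fibroblast markers it was 1072 to 1329, 568 to 866 and 808 to 1159.5, and for 12 macrophage markers 182 to 217, 80.0 to 141 and 153 to 277. Of 7 adipocyte markers tested, edgeR called 3 higher with oxaliplatin against vehicle, and the summed FPKM of the list was 32.6 to 71.1 with oxaliplatin, 13.6 to 23.3 with paclitaxel and 16.6 to 26.4 with vehicle. Of 7 B cell markers tested, edgeR called 0 and DESeq2 4 in that comparison, with 6 at an unadjusted edgeR p under 0.05, and the sums were 14.1 to 61.6, 3.87 to 10.6 and 11.3 to 15.6 FPKM in the 3 groups. For 7 satellite glia markers the score was -0.41, -0.51, -0.53 and 0.09 in paclitaxel libraries 1 to 4. It was -0.35 to 0.16 with oxaliplatin and -0.21 to 0.14 with vehicle. Every marker tested was above 0 in at least 1 library. The part of these cell types in the potassium channel results was addressed by 1 fit only, with the neuron score as a covariate.

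In that edgeR fit the direct comparison called 0 of the 40 genes and 31 of all genes tested, against 3 of the 40 and 1788 of all genes without the covariate. Paclitaxel against vehicle called 0, and oxaliplatin against vehicle called 6 of the 40: Kcng4, Kcnip1, Kcnip4, Kcnn3 and Kcnv1 lower and Kcnh6 higher. All genes called for oxaliplatin against vehicle were 1204 (7.62%), against 278 without the covariate. With the covariate 24 of the 40 had lower estimates in each comparison. The median over the set was then -0.08 for oxaliplatin against vehicle, -0.02 for paclitaxel against vehicle and -0.08 between the drugs, where it was -0.17, 0.10 and -0.30 without the covariate. Kcnv1 in the direct comparison had a log2 fold change of -0.52 with the covariate (adjusted p = 0.168) and -0.53 without. Kcnd1 stood at -0.04 with the covariate and at -0.51 without, Kcna6 at 0.04 with it and -0.39 without, and Kcnip3 at 0.17 with it and -0.53 without. The score separates the drug groups except for replicate 4, so group and score are partly confounded in this fit.

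**Figure D5:**
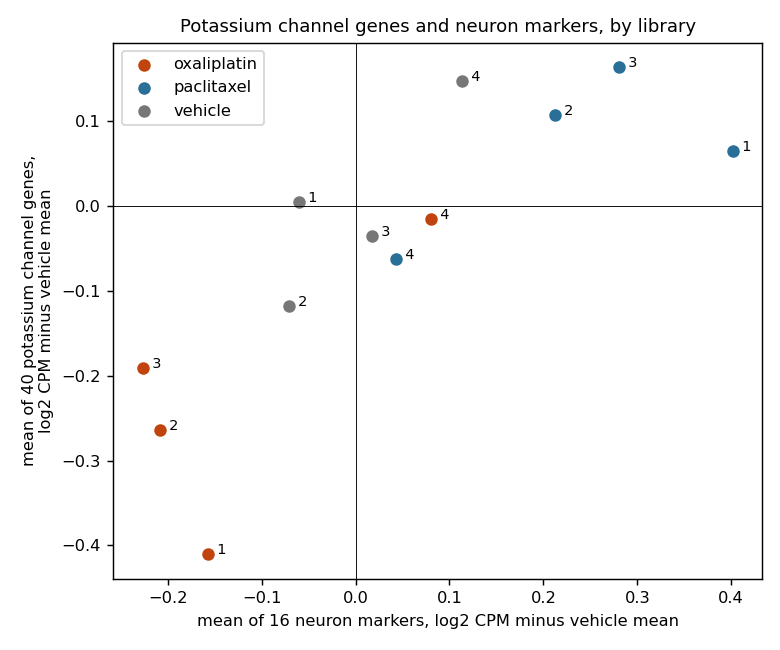
Mean log2 CPM of the 40 potassium channel genes against that of 16 neuron markers, each minus the vehicle mean, with 1 point per library numbered by replicate. Oxaliplatin 1 to 3 are lowest on both axes and paclitaxel 1 to 3 are highest on the neuron axis (0.21 to 0.40), with replicate 4 of both drugs near vehicle.

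Genes that work with these channels were read from the same fits. Among all genes tested, 17.2% had an unadjusted edgeR p under 0.05 in either direction for oxaliplatin and 17.1% for paclitaxel, each against vehicle. The counts at that level below also pool both directions. Between the drugs edgeR called 11.3% of all genes tested, with 4.71% of all genes tested called lower with oxaliplatin. Of 12 genes of Kv1 partners and of the juxtaparanode, where Kv1 channels cluster beside the node of myelinated axons, edgeR and DESeq2 called 0 against vehicle for either drug, with 3 at an unadjusted edgeR p under 0.05 for oxaliplatin and 3 for paclitaxel. In the direct comparison edgeR called 3 of the 12 lower with oxaliplatin than with paclitaxel and 0 higher. The Kv1-associated receptor gene Adam22 had 254, 237, 235 and 308 CPM with oxaliplatin, against 333, 345, 346 and 336 CPM with paclitaxel (log2 fold change -0.40 ± 0.09, edgeR adjusted p = 0.0172). Adam23 (-0.41 ± 0.12) and Epb41l3 (-0.38 ± 0.11), which encodes the scaffold protein 4.1B, were the others called. Of 23 alternative fits 16 called Adam22, 8 Adam23 and 12 Epb41l3. The median of the 12 genes was -0.32 on the log2 scale, and 10 of the 12 had lower estimates. The 2 with higher estimates, Lgi4 (0.38 ± 0.14) and Dlg1 (0.38 ± 0.16), were not called.

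Of the 19 tested genes among 31 further Kv, KCa and KNa subunit genes, edgeR and DESeq2 called 0 against vehicle for either drug, with 5 at an unadjusted edgeR p under 0.05 for oxaliplatin and 2 for paclitaxel. In the direct comparison 2 were called lower and 1 higher by edgeR, where 4.71% of all genes tested were called lower. Estimates between the drugs were lower for 13 and higher for 6 of the 19, with a median of -0.10 on the log2 scale. In the set of 40 it was -0.30, with 38 lower. For oxaliplatin against vehicle 14 of the 19 were lower, with a median of -0.18, against -0.17 in the set. Amigo1, a partner of Kv2 channels, had 142, 151, 143 and 172 CPM with oxaliplatin, against 217, 186, 220 and 173 CPM with paclitaxel (log2 fold change -0.39 ± 0.09, edgeR adjusted p = 0.0211). Dpp6, which joins Kv4 channels, had a log2 fold change of -0.34 ± 0.09. Kcnn4, the intermediate-conductance calcium-activated channel gene that blood cells also express, was higher, with 23.0, 11.3, 19.99 and 14.4 CPM with oxaliplatin, against 12.3, 9.68, 8.64 and 9.82 CPM with paclitaxel (log2 fold change 0.76 ± 0.20, edgeR adjusted p = 0.0274).

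Of 16 inward rectifier genes, edgeR and DESeq2 called 0 against vehicle for either drug. At an unadjusted edgeR p under 0.05 there were 7 for oxaliplatin, 2 of them lower and the rest higher. For paclitaxel there were 4, with 2 lower and the rest higher. Between the drugs 1 was called in each direction by edgeR, Kcnj12 lower (log2 fold change -0.43 ± 0.11) and Kcnj9 higher (0.54 ± 0.15), the second with uncertain counts. Of 10 genes for repressors of Kv genes studied in injured ganglia, edgeR called 0 against vehicle, with 3 at an unadjusted p under 0.05 for oxaliplatin and 1 for paclitaxel, while DESeq2 called 2 for oxaliplatin and 0 for paclitaxel. Between the drugs edgeR called 2, both higher with oxaliplatin. Rest, a repressor of neuronal genes, had 16.1, 20.9, 21.7 and 14.9 CPM with oxaliplatin, against 12.03, 14.3, 11.4 and 15.2 CPM with paclitaxel (log2 fold change 0.48 ± 0.14, edgeR adjusted p = 0.0402). Rest was called in 8 of 23 alternative fits, and its log2 fold change was 0.01 with the neuron score as covariate. Ezh2, a histone methyltransferase also present in dividing cells, had 11.7, 11.9, 12.4 and 11.4 CPM with oxaliplatin, against 6.41, 7.63, 6.81 and 9.35 CPM with paclitaxel (log2 fold change 0.65 ± 0.13, edgeR adjusted p = 0.00954).

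Promoter windows show how unlike the starts of these genes are. RefSeq windows of assembly GRCr8, 250 bases before to 50 after a gene's start, matched 32 of the 40 genes, and the 2 called genes with a window, Kcnip1 and Kcna6, are shown with Kcna2, the Kv1 pore gene with the highest mean level over the 12 libraries. Each runs 5′ to 3′ on the strand of the gene, and capitals mark CG pairs. The Kcnip1 window is chr10:19092976-19093275 on the minus strand, with 60.3% G and C and 8 CG pairs. Kcna6 (chr4:161262303-161262602, minus strand) has 43.0% G and C and 3 CG pairs, and Kcna2 (chr2:197393280-197393579, plus strand) has 73.3% and 40 CG pairs.
Kcnip1: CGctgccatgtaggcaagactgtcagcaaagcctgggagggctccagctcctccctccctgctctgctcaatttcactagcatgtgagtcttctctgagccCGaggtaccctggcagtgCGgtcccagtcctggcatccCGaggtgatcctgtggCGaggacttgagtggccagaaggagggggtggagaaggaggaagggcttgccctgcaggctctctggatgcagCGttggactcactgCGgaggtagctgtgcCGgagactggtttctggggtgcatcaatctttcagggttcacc
Kcna6: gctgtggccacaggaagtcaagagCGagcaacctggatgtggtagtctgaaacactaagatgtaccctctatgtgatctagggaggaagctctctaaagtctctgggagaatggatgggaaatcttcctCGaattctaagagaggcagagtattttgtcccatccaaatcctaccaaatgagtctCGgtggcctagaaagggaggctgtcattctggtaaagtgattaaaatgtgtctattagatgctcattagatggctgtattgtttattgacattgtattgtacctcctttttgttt
Kcna2: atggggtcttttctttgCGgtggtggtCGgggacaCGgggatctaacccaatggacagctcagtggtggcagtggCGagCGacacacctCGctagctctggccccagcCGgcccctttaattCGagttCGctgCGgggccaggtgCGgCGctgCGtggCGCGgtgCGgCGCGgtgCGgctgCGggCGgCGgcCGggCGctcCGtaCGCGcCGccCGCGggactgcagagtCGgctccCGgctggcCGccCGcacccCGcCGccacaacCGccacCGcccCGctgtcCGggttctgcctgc
The median G and C content was 66.3% over the 32 windows of the set, against 60.3% over 12194 windows of genes tested. Motifs were searched as exact letters on both strands. The GC box GGGCGG was in 19 of the 32 windows (59.4%), against 59.1% of the windows of genes tested. The cAMP response element TGACGTCA, the E-box CACGTG and the TATA letters TATAAA were each in 0 of the 32, against 2.99%, 8.89% and 7.43% of the windows of genes tested, with some overlap possible between motifs. Neither the Kcnip1 nor the Kcna6 window held any of these 4 motifs.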

How the data were processed

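Ganglia had been snap-frozen, and Trizol RNA went into BGISEQ-500 libraries, per the labels' protocols. The deposited tables give, per the file headers, 1 expected count (an estimated count that shared reads make fractional) and 1 FPKM value for each gene and library. CASAVA 1.4 and Bowtie2 appear in the submitters' processing notes. The quantifier, the genome build and the strand setting are not given in the sources used here. No listed FPKM lay under 0.01, and genes that a table does not list were set to 0. These counts, rounded, entered a fit in edgeR 4.0.16 under R 4.3.3 (filterByExpr, TMM, robust quasi-likelihood fit of 3 group means over 12 libraries, 9 residual degrees of freedom, two-sided tests). Benjamini-Hochberg adjustment ran over 15809 genes. The common biological coefficient of variation was 0.159, and depth was 17008728 to 17615736 counts per library. Alternatives were DESeq2 1.42.0, limma 3.58.1 on log2(FPKM + 1), log2(FPKM + 0.1) or voom with quality weights, other scalings and filters, a neuron marker covariate, a replicate block and each library left out. No libraries of a group agreed within sampling noise, since chi-square per gene was 8.07 to 44.9.

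The potassium channel genes, the gene lists and the tests were chosen with earlier results of these data known. Values per library are given for each of the 40 genes called in a comparison, for the 3 with the smallest p in each direction and for the highest of each family. Related genes are named where called. Kcnip4, Kcng4, Kcnd2, Kcnn2, Kcna4 and Kcnab1 meet none of these rules. Their values per library are given because their groups did not overlap in a comparison. Kcns1 was also added after its values were seen. The remaining genes are given by level or range, except Kcna5, Kcnc1, Kcnf1, Kcnn3 and Kcnq3, which have only a shared span of fold changes. Gene symbols are those of the files, and promoter windows come from RefSeq (GRCr8).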

Additional observations from a re-analysis of the deposited data

Results flagged for a closer look

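In 5 of 120 groups of 4 libraries examined (40 genes in 3 groups), 1 library stood apart from the other 3, with a gap over the whole range above Dixon's 95% critical value. Chance gives about 1 in 20 groups. Kcnc2 had 31.2 CPM in oxaliplatin 4, against 22.1 to 22.7 CPM in the other 3 (gap over range 0.929). Kcnma1 had 16.7 CPM in oxaliplatin 1, against 22.4 to 22.9 CPM in the others (0.917). Kcnh5 had 1.04 CPM in oxaliplatin 1, against 2.01 to 2.15 CPM (0.877). In vehicle, Kcng4 had 15.3 CPM in library 2, against 12.6 to 12.9 CPM (0.908), and Kcnn1 had 42.9 CPM in library 1, against 37.5 to 38.1 CPM (0.883).

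For 3 genes the difference between the drugs' effects passed the edgeR test, with lower values under oxaliplatin than under paclitaxel. The log2 differences were -0.53 for Kcnv1 (adjusted p = 0.00696), -0.51 for Kcnd1 (adjusted p = 0.0259) and -0.39 for Kcna6 (adjusted p = 0.035). Kcnv1 was lower in 4 of 4 oxaliplatin libraries than in every paclitaxel library. Without paclitaxel 4 the log2 difference was -0.61 for Kcnd1 (edgeR adjusted p = 0.00561) and -0.47 for Kcna6 (edgeR adjusted p = 0.00835). With the neuron score as a covariate it was -0.04 for Kcnd1 and 0.04 for Kcna6, and neither was called. The part of other cell types in these differences was not tested.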

How the results depend on the processing

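Potassium channel genes called (of 40, with all genes called after them) were 0 (19) for paclitaxel and 2 (278) for oxaliplatin, each against vehicle, and 3 (1788) for oxaliplatin against paclitaxel. With voom and quality weights they were 9 (2271), 3 (631) and 19 (4796), and with DESeq2 0 (247), 3 (881) and 12 (2795). With the neuron score as a covariate they were 0 (6), 6 (1204) and 0 (31). Fits on the libraries of the 2 groups alone gave 0 (21), 2 (161) and 1 (1016). In the direct comparison RLE scaling gave 8 (1884), and the genes listed in all 12 libraries gave 6 (1904). All genes called were then 11.9% and 12.2% of those tested. Leaving out 1 library gave 0 to 7 (10 to 1631), 0 to 2 (49 to 357) and 1 to 14 (571 to 3463). The causes of these moves were not tested. Replicate numbers share only a number: same-numbered libraries had correlations of -0.33 to 0.25 of their deviations, and with a replicate block 0 (15), 0 (72) and 2 (986) were called.

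Some signs turned, also for genes far from 0 (between the drugs Kcns1 was -0.54, Kcnip3 -0.53, Kcnh2 -0.47 and Kcna6 -0.39 in the fit reported). With the neuron covariate the log2 values for paclitaxel were -0.017 (Kcnab2), -0.027 (Kcns1), -0.014 (Kcnh1), -0.089 (Kcnh2) and -0.0043 (Kcnt1), those for oxaliplatin against vehicle 0.075 (Kcna6) and 0.046 (Kcnd1), and those between the drugs 0.041 (Kcna6), 0.096 (Kcnab2), 0.17 (Kcnc4), 0.17 (Kcnip3), 0.34 (Kcns1), 0.13 (Kcnh1), 0.25 (Kcnh2), -0.10 (Kcnt2), 0.016 (Epb41l3) and 0.017 (Kcnj12). Kcnv1 for paclitaxel was -0.0093 with upper-quartile scaling, -0.033 and -0.037 on log2(FPKM + 1) and log2(FPKM + 0.1), and -0.031 to 0.059 with 1 library left out. Between the drugs Kcnh6 was -0.065 with voom and -0.14 to 0.14 with 1 library left out. Kcnt2 was -0.015 with DESeq2, -0.015 with RLE, -0.0012 with the block, -0.0013 on the 2 groups, -0.0025 on genes in all libraries, -0.0092 without a filter and -0.095 to 0.14 with 1 library left out.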
